A study of Homo sapiens with 6 samples.

Results

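The collagen genes and the genes of collagen-processing enzymes were examined after knockout of DNAJC12 in SH-SY5Y. This established line comes from a human neuroblastoma and has features of sympathetic neuron precursors. The set held 45 genes taken by gene symbol. It comprised 11 fibrillar collagen genes, 9 basement membrane collagen genes, 16 other collagen genes and 9 genes of enzymes and a chaperone. Of the 45 genes, 36 had a row in the gene table, which covered 20668 genes, and 31 were among the 16403 genes with enough counts to be tested.

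A collagen is a helix of intertwined alpha chains, and most chains have a gene of their own. In the endoplasmic reticulum the chains are hydroxylated at proline by prolyl 4-hydroxylases (P4HA1, P4HA2, P4HA3) and at lysine by lysyl hydroxylases (PLOD1, PLOD2, PLOD3), and fold with the collagen-binding chaperone encoded by SERPINH1; after secretion BMP1 removes the carboxyl propeptide, aided by the enhancer protein PCOLCE. Fibrillar collagens form the fibrils of connective tissue, type IV collagen forms the network of basement membranes, and type VI collagen forms beaded filaments. In peripheral nerve, type IV collagen lies in the basal lamina around Schwann cells, and types I, III and V lie in the connective tissue between fibres.

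The tested cells were SH-SY5Y in which DNAJC12, the gene of an HSP70 co-chaperone, had been disrupted with CRISPR/Cas9, and the comparison cells were wild-type (WT) SH-SY5Y, both without treatment; cell invasion is named as the property under study. There were 3 libraries of ribosomal RNA-depleted total RNA from each genotype. No source used here says whether the knockout was 1 clone or a pool, which part of the gene the guide cut, or whether replicates were separate cultures, and p-values then cover only library-to-library spread, part of which may be technical.

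The knockout libraries held 19845788 to 21869659 counts and the WT libraries 19321842 to 20071795. Log CPM values of 2 libraries correlated at 0.979 or above when they shared the genotype and at 0.945 or below when they did not. DNAJC12 itself averaged 5.54 ± 0.60 CPM in knockout libraries and 21.5 ± 1.5 CPM in WT libraries (SD, n = 3 each), so RNA of the targeted gene remained. The cell type label was checked against marker genes. All 10 noradrenergic neuroblastoma markers had a row, and their summed level was 3958 to 4039 CPM in knockout libraries and 4345 to 4490 CPM in WT libraries. Of 7 Schwann cell markers 4 had a row (7.37 to 8.35 CPM in knockout and 7.72 to 9.68 CPM in WT), and the defining genes SOX10, FOXD3 and CDH19 had none. Of 6 endothelial markers 2 had a row (0.867 to 1.94 CPM in knockout and 0.964 to 1.74 CPM in WT), without PECAM1, CDH5, KDR or TIE1. The lowest row total in the gene table was 10 counts, so a gene without a row need not have 0 reads. The transcript files listed CDH5 at 0, 1 and 4 reads in knockout libraries and 0 in WT libraries. PECAM1, KDR and TIE1 were listed there at 0 to 2 reads per library. Of 6 leukocyte markers 4 had a row, with 2.17 to 2.99 CPM in knockout and 2.08 to 3.68 CPM in WT. Of 8 fibroblast markers 7 had a row (TCF21 had none), and they summed to 282 to 296 CPM in knockout and 262 to 285 CPM in WT. Within that list PDGFRA (1.65 ± 0.09), FAP (2.10 ± 0.13) and MFAP5 (at least 101-fold) were higher in the knockout and LUM (-1.17 ± 0.07) and DPT (-1.16 ± 0.16) lower, by the same test as the collagens. MFAP5 had 0 counts in WT libraries and so was tested through the knockout alone. PDGFRB, at 125 CPM in knockout and 133 CPM in WT, did not pass (-0.09 ± 0.08), and PI16 had too few counts to be tested. The part of these marker genes in the results was not tested.

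Levels below are CPM, counts scaled to the size of each library with TMM factors, listed as knockout replicates 1, 2 and 3 and then WT replicates 1, 2 and 3. Fold changes are log2 values of knockout over WT ± SE from edgeR's quasi-likelihood fit over all 16403 genes (n = 3 each), and adjusted p is the Benjamini-Hochberg value of that test, called at 0.05. In bulk RNA, fewer cells that express a gene and less RNA per cell cannot be told apart.

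Of the 31 genes tested, 22 passed the threshold, 6 higher and 16 lower in the knockout, and 9 did not. Over all genes tested 26.0% passed, 14.5% higher and 11.5% lower. The median log2 fold change was -0.39 over the 31 genes and 9.19e-06 over all genes. The counts by class, which were not tested against each other, follow. Among 8 fibrillar genes 5 rose and 1 fell (median 1.16). Of 5 basement membrane genes 3 fell and 0 rose (median -1.22), and of 10 other collagen genes 7 fell and 0 rose (median -0.44), the same counts as by DESeq2 and limma-voom. At an unadjusted edgeR p under 0.05, 1 basement membrane gene (COL18A1) and 0 other collagen genes were higher. Of 8 genes of enzymes and the chaperone 5 fell and 1 rose (median -0.38). The groups did not overlap for 24 of the 31 genes, 7 higher and 17 lower in the knockout, where over all genes tested 41.7% had groups that did not overlap, 21.7% higher and 20.1% lower. COL4A5, COL14A1 and P4HA3 averaged under 0.5 CPM in 1 genotype and so were tested through the other genotype alone, and these counts describe the genes and support no test of the set.

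**Figure D1:**
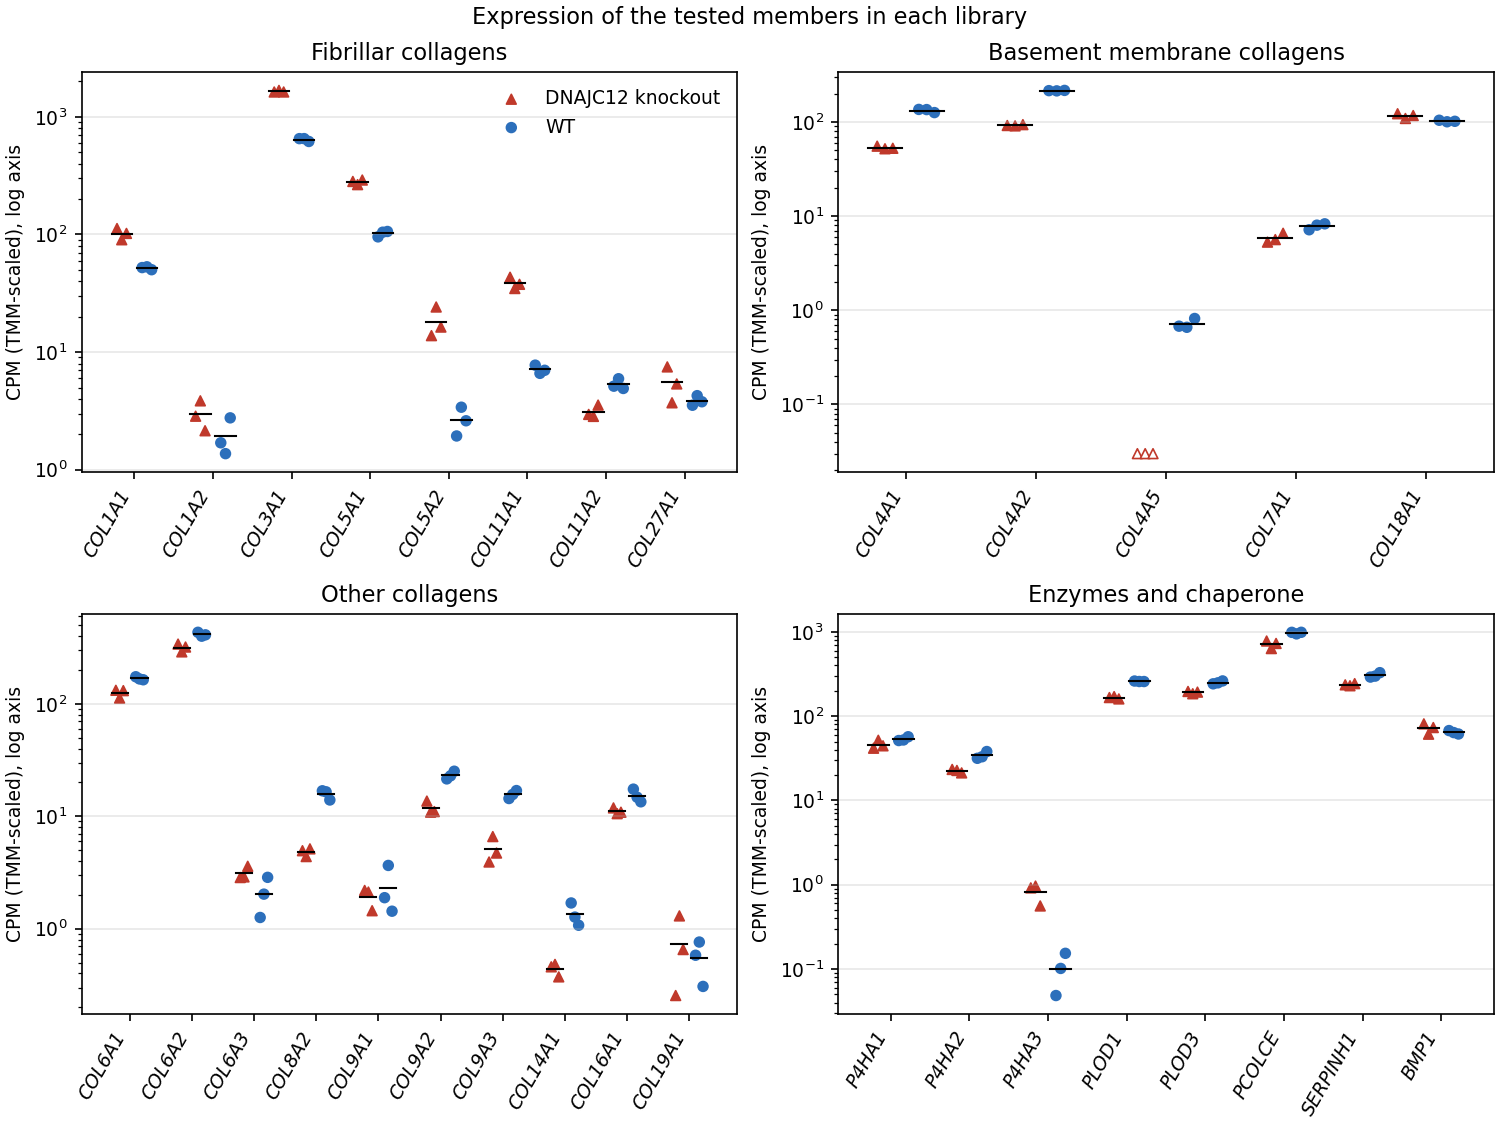
CPM of the 31 tested genes in each library on a log axis, by class, with knockout libraries as red triangles, WT libraries as blue circles and the group mean as a bar. The 3 open triangles of COL4A5 stand for 0 CPM and are drawn at the foot of the panel; COL3A1, at 1625 to 1676 CPM in knockout libraries and 617 to 653 CPM in WT libraries, is the highest collagen.

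Of the fibrillar collagens, 5 of 8 genes tested were called higher in the knockout and 1 lower. COL3A1, COL5A1, COL5A2, COL11A1 and COL1A1 were between 1.96 and 6.84 times the WT level in the knockout, COL11A2 fell to 0.585 of it, and COL1A2 and COL27A1 did not pass. The largest step in CPM was in COL3A1, the chain of type III collagen, which is a homotrimer that shares fibrils with type I. COL3A1 (ENSG00000168542, chromosome 2 from 188974373 to 189012746, GRCh38.p14) had 1625, 1676 and 1626 CPM in knockout libraries, against 652, 653 and 617 CPM in WT libraries. Each knockout library was far above each WT library and the replicates lay close together. The change was 1.36 ± 0.05 (edgeR adjusted p = 4.44e-08), or 2.56-fold. A single transcript, ENST00000304636, held 99.5% to 99.9% of the gene's estimated reads in every library.

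Chains of types V and XI regulate the nucleation and width of type I and type II fibrils and can assemble with each other. Of those tested, COL5A1, COL5A2 and COL11A1 rose and COL11A2 fell. COL5A1 (chromosome 9 from 134641803 to 134844843), the common chain of type V collagen, had 282, 265 and 290.1 CPM in knockout libraries, against 95.4, 104 and 106 CPM in WT libraries. All knockout libraries were above all WT libraries, with a change of 1.45 ± 0.07 (edgeR adjusted p = 1.55e-07). COL5A2 (chromosome 2 from 189031898 to 189441111), its partner chain, had 13.8, 24.2 and 16.3 CPM in knockout libraries, against 1.94, 3.40 and 2.61 CPM in WT libraries. The groups stood apart, although knockout replicate 2 was well above the other knockout libraries, and the change was 2.77 ± 0.25 (edgeR adjusted p = 1.63e-05). COL5A2 and COL3A1 are neighbours on chromosome 2 with 19.2 kb between them, and they rose by 6.84-fold and 2.56-fold. COL11A1 (chromosome 1 from 102876473 to 103108522), a chain of type XI collagen of cartilage and of other fibrils, had 43.3, 34.7 and 37.7 CPM in knockout libraries, against 7.75, 6.60 and 7.005 CPM in WT libraries. The lowest knockout library was above the highest WT library, and the change was 2.44 ± 0.12 (edgeR adjusted p = 2.14e-07).

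For COL5A1 and COL11A1 the 250 bases before the RefSeq start are shown because these partner chains lie on different chromosomes and rose together. Capitals mark matches on either strand to the letters CCAAT, called a CCAAT box here. They also mark matches to a GC box, searched as GGGCGG, and to a TATA box, searched as TATAAA. Matches on the opposite strand appear as the reverse complement, and no match overlaps another. COL5A1 is given from chr9:134641553-134641802 on the plus strand and COL11A1 from chr1:103108523-103108772 on the minus strand (GRCh38.p14), each 5′ to 3′.
COL5A1: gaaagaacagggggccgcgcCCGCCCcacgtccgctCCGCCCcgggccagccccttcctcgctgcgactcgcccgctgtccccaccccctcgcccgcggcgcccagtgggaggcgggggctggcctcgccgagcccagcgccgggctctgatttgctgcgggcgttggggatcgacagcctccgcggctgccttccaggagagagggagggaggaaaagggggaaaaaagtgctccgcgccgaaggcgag
COL11A1: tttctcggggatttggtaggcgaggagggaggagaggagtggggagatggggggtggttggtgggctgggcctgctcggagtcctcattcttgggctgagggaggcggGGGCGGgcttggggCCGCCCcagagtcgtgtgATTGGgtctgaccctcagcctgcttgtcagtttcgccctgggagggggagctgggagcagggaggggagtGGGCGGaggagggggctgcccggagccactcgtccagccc
The COL5A1 stretch held 2 GC boxes and no CCAAT box, and the COL11A1 stretch 3 GC boxes and 1 CCAAT box; TATAAA is in neither. These motifs are common: of 35116 RefSeq promoter windows of 300 bases, 44.95% held a GC box, 34.6% a CCAAT box and 11.5% a TATA box. Of the 45 genes, 33 had such windows, 44 in all. Of these 44 windows 27 held a GC box, 13 a CCAAT box and 5 a TATA box. Counted by gene, 24 of the 33 held a GC box, 12 a CCAAT box and 5 a TATA box in at least 1 window. The counts by gene are not on the same scale as the shares, which are per window. The printed stretches of 250 bases are shorter than a window, so the shares do not apply to them directly. A match is a run of letters and not a measured binding site.

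Type I collagen, the main fibril collagen of skin and bone, is built of COL1A1 and COL1A2 chains, and the COL1A1 chain alone passed the test. COL1A1 (chromosome 17 from 50184101 to 50201631) had 112, 90.1 and 102 CPM in knockout libraries, against 52.3, 53.1 and 50.2 CPM in WT libraries. The groups stood apart, with a change of 0.97 ± 0.09 (edgeR adjusted p = 1.72e-05). Over 15 alternative settings of the processing the value of COL1A1 passed each time, but its size ran from 0.65 to 1.05. COL1A2 was low, with 2.85, 3.85 and 2.15 CPM in knockout libraries, against 1.69, 1.37 and 2.76 CPM in WT libraries. Its groups overlapped and its value of 0.60 ± 0.34 did not pass (edgeR adjusted p = 0.232); the difference between both chains was not tested by this fit and is taken up with the chain ratios.

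COL11A2 (chromosome 6 from 33162694 to 33193519), the other type XI chain tested, ran the opposite way to COL11A1. It had 2.95, 2.84 and 3.54 CPM in knockout libraries, against 5.13, 5.94 and 4.91 CPM in WT libraries. The groups did not overlap and the change was -0.77 ± 0.20 (edgeR adjusted p = 0.0146). That call was not kept without WT replicate 2 (-0.69, adjusted p = 0.0650) or on transcript-file counts corrected for length (-0.83, adjusted p = 0.0712). COL27A1, a fibrillar chain of cartilage, had 7.49, 3.71 and 5.36 CPM in knockout libraries, against 3.53, 4.26 and 3.78 CPM in WT libraries. The groups overlapped through knockout replicate 2, and 0.51 ± 0.25 did not pass (edgeR adjusted p = 0.174); without that library the value was 0.73 (adjusted p = 0.0307).

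The remaining fibrillar genes were at or near the limit of detection, where 1 count is 0.0466 to 0.0511 CPM. COL2A1, the cartilage collagen, had 2 counts over the knockout libraries and 17 over the WT libraries and was not tested (ratio 0.114, 95% exact interval for counting error 0.0128 to 0.480). COL5A3 and COL24A1 had no row in the gene table and were listed at 0 reads in all 6 transcript files.

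**Figure D2:**
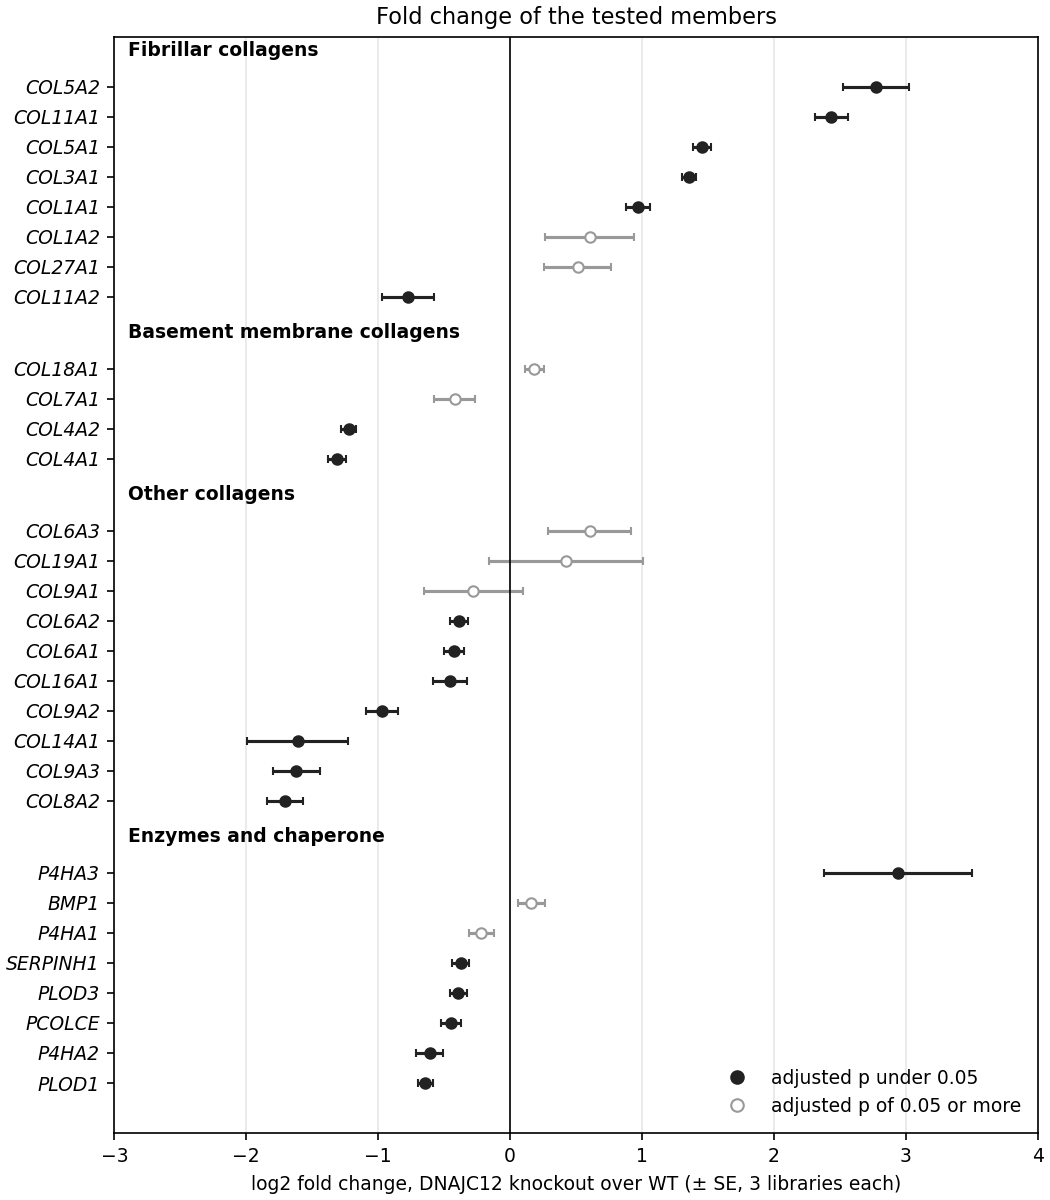
Log2 fold changes (knockout over WT) with SE of 30 tested genes by class, filled where the adjusted p was under 0.05 and open where it was not. COL4A5, at 0 counts in all knockout libraries, is left out; fibrillar genes lie mostly to the right, from 2.77 in COL5A2 to -0.77 in COL11A2, and the other classes mostly to the left, with P4HA3 (2.94) on the right.

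Of the 5 basement membrane collagen genes tested, 3 fell and 2 did not pass. COL4A1 and COL4A2, the chains of the type IV network present in nearly all basement membranes, were at 0.402 and 0.428 of the WT level in the knockout, and COL4A5, a chain of tissue-restricted networks such as that of the glomerulus, had no count in any knockout library. COL7A1, lower in every knockout library, and COL18A1, higher in every knockout library, did not pass. COL4A1 (ENSG00000187498, chromosome 13 from 110148963 to 110307157) had 55.4, 52.0 and 52.6 CPM in knockout libraries, against 136, 135 and 126 CPM in WT libraries. Every knockout library was below every WT library, and the change was -1.31 ± 0.07 (edgeR adjusted p = 3.35e-07). COL4A2 (ENSG00000134871, chromosome 13 from 110307284 to 110513209) had 91.8, 90.9 and 93.7 CPM in knockout libraries, against 215, 214 and 216 CPM in WT libraries. The replicates of each genotype lay within a few CPM of each other, and the change was -1.22 ± 0.06 (edgeR adjusted p = 1.69e-07).

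COL4A1 and COL4A2 are read in opposite directions from starts that lie 126 bases apart. The whole interval between the starts, chr13:110307158-110307283 in GRCh38.p14 (from RefSeq, on the plus strand, toward COL4A2), is shown because the genes on either side fell together; capitals mark the same motifs as above.
COL4A1-COL4A2: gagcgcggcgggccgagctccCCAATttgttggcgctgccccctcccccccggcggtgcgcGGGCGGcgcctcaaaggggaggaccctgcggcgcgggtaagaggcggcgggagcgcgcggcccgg
The interval held 1 CCAAT box and 1 GC box and was 80.2% G or C. It is shorter than the 300-base windows behind the shares given above, which therefore do not apply to it.

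COL4A5 (ENSG00000188153, chromosome X from 108439838 to 108697545) had 0, 0 and 0 CPM in knockout libraries, against 0.678, 0.660 and 0.818 CPM in WT libraries. These are 0 counts over the knockout libraries and 43 over the WT libraries, so with the knockout set to a floor of 3 counts in all, the gene was at least 14.8-fold lower there (edgeR adjusted p = 0.000734). The level in WT was itself low. COL4A6 lies next to COL4A5, with 379 bases between the genes, and had no row in the gene table; the transcript files listed 0, 0 and 0 estimated reads in knockout libraries, against 4.00, 5.01 and 0 in WT libraries. Within 1 Mb of this pair, 7 other genes were tested by edgeR and 0 passed, with log2 fold changes of -0.56 to 0.13 and a lowest adjusted p of 0.104; 1 of them had an unadjusted p under 0.05, and DESeq2 and limma-voom also called 0. The 250 bases before the RefSeq start of COL4A5, chrX:108439588-108439837 on the plus strand, are shown because the gene had 0 counts in the knockout.
COL4A5: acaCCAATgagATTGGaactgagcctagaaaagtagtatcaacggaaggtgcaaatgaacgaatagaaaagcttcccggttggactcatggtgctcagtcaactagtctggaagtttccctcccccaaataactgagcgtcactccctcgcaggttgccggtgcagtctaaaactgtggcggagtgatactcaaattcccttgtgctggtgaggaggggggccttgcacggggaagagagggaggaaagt
They held 2 CCAAT boxes within the first bases, 1 on each strand, and neither GGGCGG nor TATAAA. COL4A3 and COL4A4, chains that assemble with COL4A5, had no row and were listed at 0 reads in all 6 transcript files.

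COL7A1, the anchoring fibril collagen below epithelia, had 5.30, 5.63 and 6.58 CPM in knockout libraries, against 7.17, 8.02 and 8.28 CPM in WT libraries. The knockout libraries were all below the WT libraries, but -0.42 ± 0.16 did not pass (edgeR adjusted p = 0.0725). With library size in place of TMM it did (-0.48, edgeR adjusted p = 0.0432). On transcript-file counts the value had the opposite sign (0.68 summed and 1.54 corrected for length, neither of which passed). Those counts held 42.5% of the gene's reads, at 32.9, 47.1 and 141 in knockout libraries and 55.1, 27.6 and 48.7 in WT libraries. Only in knockout replicate 3 did they hold all reads of the gene. COL18A1, whose carboxyl end is the source of endostatin, had 122, 109 and 117.1 CPM in knockout libraries, against 104, 101 and 102 CPM in WT libraries. The knockout libraries were all above the WT libraries, and 0.18 ± 0.07 did not pass (edgeR adjusted p = 0.0752). Without knockout replicate 2 it did (0.23, edgeR adjusted p = 0.0251). On transcript-file counts corrected for length the value was -0.42, which did not pass, but those counts held only 6.48% of the gene's reads. COL15A1, another collagen with an endostatin-like end, had 15 counts over the knockout libraries and 1 over the WT libraries and was not tested (ratio 14.5, 95% exact interval for counting error 2.24 to 612).

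Of the 10 other collagen genes tested, 7 fell and 3 did not pass. COL6A1, COL6A2, COL8A2, COL9A2, COL9A3, COL14A1 and COL16A1 were between 0.306 and 0.764 of the WT level in the knockout. Type VI collagen, a filament former built of COL6A1, COL6A2 and a larger chain, was the most abundant of this class. COL6A2 (chromosome 21 from 46098112 to 46132848) had 339.7, 289.8 and 319.9 CPM in knockout libraries, against 433, 399 and 411 CPM in WT libraries. COL6A1 (chromosome 21 from 45981770 to 46005048) had 132, 112 and 131 CPM in knockout libraries, against 174, 166 and 164 CPM in WT libraries. In both genes the groups stood apart and knockout replicate 2 was the lowest library. The changes were -0.39 ± 0.07 in COL6A2 (edgeR adjusted p = 0.00209) and -0.43 ± 0.08 in COL6A1 (edgeR adjusted p = 0.00191); on transcript-file counts corrected for length COL6A1 did not pass (-0.34, adjusted p = 0.0519). These genes are neighbours with 93.1 kb between them. COL6A3, the usual large chain, had 2.85, 2.89 and 3.59 CPM in knockout libraries, against 1.26, 2.03 and 2.86 CPM in WT libraries. Its groups overlapped by a narrow margin and 0.60 ± 0.32 did not pass (edgeR adjusted p = 0.200).

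COL8A2, a chain of the network collagen of the corneal endothelium, had the lowest ratio of this class. It had 4.94, 4.38 and 5.13 CPM in knockout libraries, against 16.8, 16.5 and 13.96 CPM in WT libraries (chromosome 1 from 36095239 to 36125222). The groups were far apart, and the change was -1.71 ± 0.14 (edgeR adjusted p = 6.46e-06). Its usual partner COL8A1 had no row and was listed at 0 reads in all 6 transcript files.

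Type IX collagen decorates the surface of type II fibrils and is built of COL9A1, COL9A2 and COL9A3 chains, of which COL9A2 and COL9A3 fell. COL9A2 (chromosome 1 from 40300489 to 40317286) had 13.6, 10.9 and 11.01 CPM in knockout libraries, against 21.5, 22.9 and 25.2 CPM in WT libraries, a change of -0.97 ± 0.12 (edgeR adjusted p = 0.000181). COL9A3 (chromosome 20 from 62816213 to 62841159) had 3.92, 6.60 and 4.71 CPM in knockout libraries, against 14.4, 15.6 and 16.9 CPM in WT libraries, a change of -1.62 ± 0.18 (edgeR adjusted p = 7.21e-05). Neither gene's groups overlapped. COL9A1 had 2.19, 2.12 and 1.45 CPM in knockout libraries, against 1.89, 3.65 and 1.43 CPM in WT libraries. Those groups overlapped and -0.28 ± 0.38 did not pass (edgeR adjusted p = 0.650); without WT replicate 2 the value was 0.20.

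COL14A1 and COL16A1, collagens with interrupted helices that attach to fibrils, were called, but less firmly. COL14A1 had 0.458, 0.482 and 0.373 CPM in knockout libraries, against 1.69, 1.27 and 1.07 CPM in WT libraries, from 27 and 81 counts. COL16A1 had 11.9, 10.5 and 10.9 CPM in knockout libraries, against 17.4, 14.8 and 13.4 CPM in WT libraries. The groups of both genes stood apart, with changes of -1.61 ± 0.38 in COL14A1 (edgeR adjusted p = 0.0104) and -0.46 ± 0.13 in COL16A1 (edgeR adjusted p = 0.0232). COL14A1 did not pass without knockout replicate 3 (adjusted p = 0.0599), without WT replicate 1 (0.0564) or on transcript-file counts corrected for length (0.173). COL16A1 did not pass without knockout replicate 3 (0.0885), WT replicate 1 (0.102) or WT replicate 2 (0.0579), or on those length-corrected counts (0.190).

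The last genes of the class were scarce. COL19A1 had 0.255, 1.30 and 0.653 CPM in knockout libraries, against 0.581, 0.761 and 0.307 CPM in WT libraries, and did not pass (0.42 ± 0.58, edgeR adjusted p = 0.659); without knockout replicate 2 the value was -0.26. COL13A1, COL21A1 and COL22A1 were below the filter on low counts. COL13A1, a transmembrane collagen, had 20 counts over the knockout libraries and 7 over the WT libraries (ratio 2.77, 95% exact interval 1.12 to 7.75), COL21A1 had 15 and 2 (7.27, 1.69 to 65.5), and COL22A1 had 27 and 8 (3.27, 1.44 to 8.33). In each of these the libraries of both genotypes overlapped, and the intervals cover counting error only. COL25A1 had no row and was listed at 0 reads in all 6 transcript files, and COL12A1, also without a row, was listed at 0, 3 and 0 reads in knockout libraries, against 0, 0 and 1 in WT libraries.

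Levels of different genes were compared per length, as TPM summed over each gene's transcripts, for the 26 collagen genes with such a sum; COL7A1, COL9A1, COL13A1 and COL18A1 had too few of their reads in the GENCODE transcripts used to assign them. Fibrillar collagens summed to 493 ± 8.41 TPM in knockout libraries and 210 ± 15.9 TPM in WT libraries (SD, n = 3 each), a ratio of 2.35. Basement membrane collagens summed to 33.2 ± 0.612 TPM in knockout and 83.1 ± 0.133 TPM in WT. Nearly all of this was COL4A1 and COL4A2, at 33.1 TPM in knockout and 82.6 TPM in WT. This sum and that of all collagens lack COL18A1, which averaged 116 CPM in knockout and 102 CPM in WT. By CPM, COL18A1 was above both COL4A1 and COL4A2 in knockout libraries, so the sum does not describe the whole class. Other collagens summed to 195 ± 16.8 TPM in knockout and 279 ± 11.1 TPM in WT. All collagens together came to 722 ± 11.2 TPM in knockout and 572 ± 21.8 TPM in WT. Without COL3A1 the order turned round, with 326 ± 21.2 TPM in knockout and 411 ± 13.3 TPM in WT. In each of these sums the libraries of both genotypes did not overlap (two-sided exact permutation p = 0.1, the smallest that 3 against 3 libraries allow).

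The make-up of collagen transcripts differed between the genotypes. COL3A1 made up 54.8 ± 2.31% of collagen TPM in knockout libraries and 28.2 ± 0.580% in WT libraries. COL6A2 made up 18.5 ± 1.11% in knockout, second to COL3A1, and 31.9 ± 0.901% in WT, where it was above COL3A1. The pair COL4A1 and COL4A2 made up 4.59 ± 0.148% in knockout and 14.4 ± 0.598% in WT, and COL5A1 6.38 ± 0.157% in knockout and 3.07 ± 0.310% in WT. For these shares too the groups stood apart (exact permutation p = 0.1). COL1A1 made up 5.08 ± 0.525% in knockout and 4.30 ± 1.02% in WT, and its groups overlapped (exact permutation p = 0.4). Its TPM in WT libraries was 26.4, 30.1 and 17.6, where its CPM was 52.3, 53.1 and 50.2 and the CPM groups stood apart. A second transcript, ENST00000507689, held 6.87%, 8.34% and 3.16% of its estimated reads in those libraries. The part of this division of reads in the overlap was not tested.

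**Figure D3:**
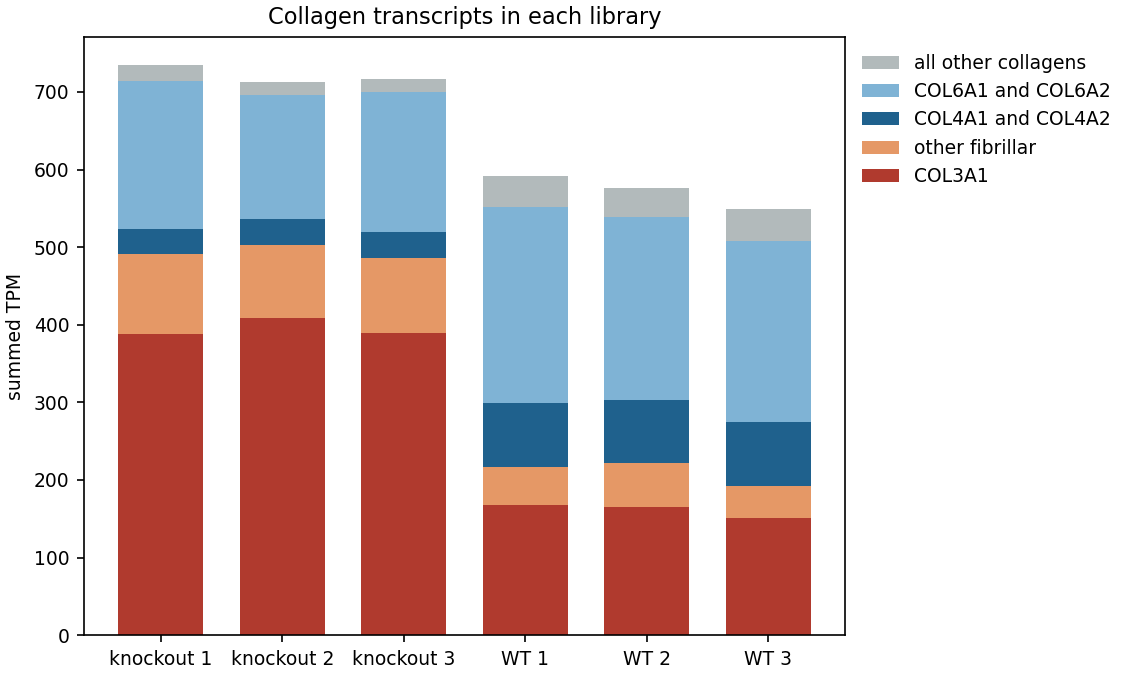
Summed TPM of collagen transcripts in each library as stacked bars, with knockout libraries left and WT libraries right, for the 26 collagen genes that had a TPM sum. COL3A1 fills 52.8% to 57.3% of the bar in knockout libraries and 27.6% to 28.7% in WT libraries, while the segments of COL4A1 with COL4A2 and of COL6A1 with COL6A2 are smaller in knockout libraries.

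Chains that assemble into 1 molecule were then compared as log2 ratios of TPM in each library, for 7 pairs. COL4A1 over COL4A2 was -0.96 ± 0.05 in knockout libraries and -0.84 ± 0.05 in WT libraries (SD, n = 3 each), without overlap. The difference was -0.12 on TPM and stayed below 0 with each library left out. On CPM the groups of this ratio overlapped, with knockout replicate 1 above WT replicate 3. COL6A1 over COL6A2 was -1.62 ± 0.10 in knockout and -1.66 ± 0.03 in WT, and the groups overlapped; the difference was 0.04 on TPM and -0.0385 on CPM. Of type V and XI chains, COL5A1 over COL5A2 was 3.66 ± 0.46 in knockout and 4.68 ± 0.91 in WT, with overlap. The overlap came through WT replicate 2, where COL5A2 had 1.53 TPM, against 0.402 and 0.520 in WT replicates 1 and 3. By CPM these were 3.40, against 1.94 and 2.61. On CPM every knockout library was below every WT library in this ratio, which was not tested on that scale. COL5A1 over COL11A1 was 2.46 ± 0.06 in knockout and 3.39 ± 0.75 in WT without overlap, although knockout replicate 2 (2.495) came close to WT replicate 1 (2.52). In WT replicate 1 COL11A1 had 2.80 TPM, against 1.28 and 1.31 in WT replicates 2 and 3. By CPM these were 7.75, against 6.60 and 7.005, and on CPM the groups of this ratio lay further apart. COL9A2 over COL9A3 was 1.23 ± 0.72 in knockout and 0.43 ± 0.02 in WT without overlap, by a margin set by knockout replicate 2 (0.46) and WT replicate 2 (0.44). COL6A3 over COL6A1 was -6.79 ± 0.27 in knockout and -7.75 ± 0.69 in WT, with overlap, although on CPM every knockout library was above every WT library. COL1A1 over COL1A2 was 4.95 ± 0.34 in knockout and 5.08 ± 1.11 in WT, with overlap, and the sign of its difference changed (-0.13 on TPM, 0.34 on CPM, and on TPM 0.25 without WT replicate 1 and 0.13 without WT replicate 2). By the exact permutation test no pair went below p = 0.1, or 0.233 after Benjamini-Hochberg adjustment over the 7 pairs, the smallest this design gave. COL4A5 over COL4A6 was not formed, as both were at 0 in the knockout.

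**Figure D4:**
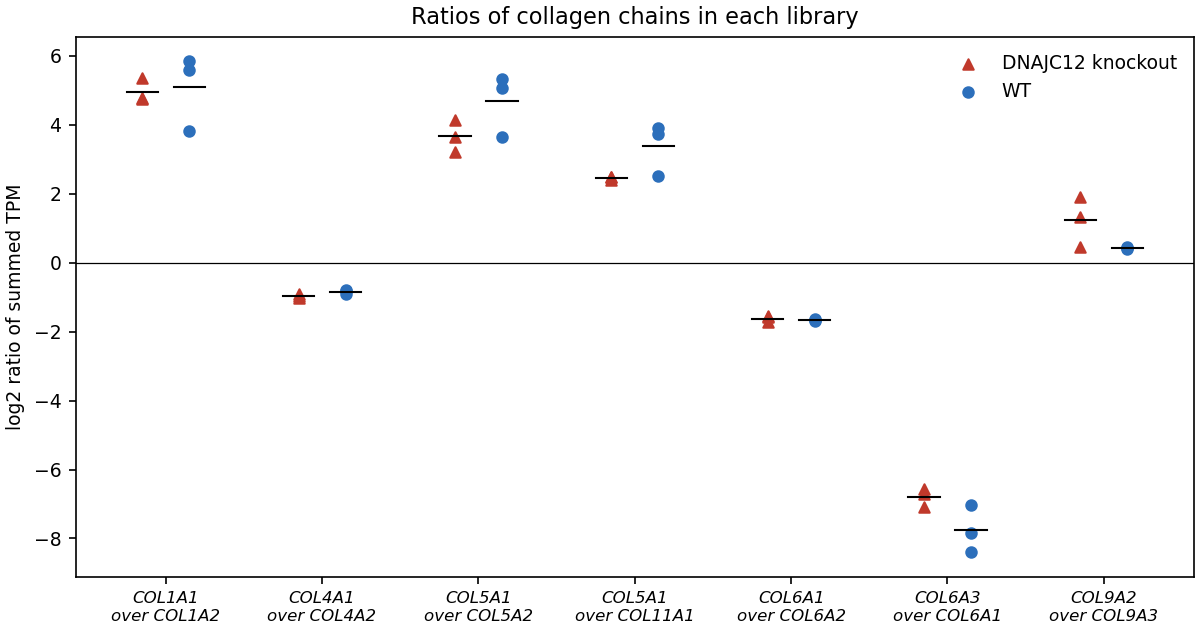
Log2 ratios of summed TPM for 7 pairs of collagen chains in each library, with knockout libraries as red triangles, WT libraries as blue circles and the group mean as a bar. The ratios of COL4A1 to COL4A2 and of COL6A1 to COL6A2 vary little between libraries, while that of COL1A1 to COL1A2 runs from 4.73 to 5.34 in knockout libraries and from 3.81 to 5.84 in WT libraries.

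Genes of collagen processing mostly fell by small amounts. PCOLCE, PLOD1, PLOD3, SERPINH1 and P4HA2 were between 0.640 and 0.771 of the WT level in the knockout, P4HA3 rose, and P4HA1 and BMP1 did not pass. PCOLCE, the enhancer of carboxyl propeptide removal, was the most abundant, with 769 ± 79.5 TPM in knockout libraries and 1078 ± 26.8 TPM in WT libraries. In CPM it had 779, 634 and 729 in knockout libraries, against 988, 947 and 989 in WT libraries. The groups stood apart, knockout replicate 2 was the lowest library, and the change was -0.45 ± 0.07 (edgeR adjusted p = 0.00120). BMP1, the proteinase that PCOLCE aids, had 81.0, 61.1 and 73.3 CPM in knockout libraries, against 67.4, 63.8 and 61.4 CPM in WT libraries. Its groups overlapped and 0.16 ± 0.10 did not pass (edgeR adjusted p = 0.296); without knockout replicate 2 it did (0.26, adjusted p = 0.0313).

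Of the lysyl hydroxylases, whose products carry sugar chains and crosslinks, both genes tested fell. PLOD1 (chromosome 1 from 11934717 to 11975537) had 166, 171 and 160.2 CPM in knockout libraries, against 261, 258 and 258 CPM in WT libraries. PLOD3 (chromosome 7 from 101205984 to 101217581) had 196, 184 and 193 CPM in knockout libraries, against 242, 249 and 262 CPM in WT libraries. The groups did not overlap in either gene, and the changes were -0.64 ± 0.06 in PLOD1 (edgeR adjusted p = 1.64e-05) and -0.39 ± 0.06 in PLOD3 (edgeR adjusted p = 0.000837). PLOD2, the hydroxylase of telopeptide lysines, had no row and was listed at 0 reads in all 6 transcript files.

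The prolyl 4-hydroxylase subunits moved in different directions. P4HA2 (chromosome 5 from 132190147 to 132227853) had 23.3, 22.7 and 21.2 CPM in knockout libraries, against 31.6, 33.0 and 38.0 CPM in WT libraries, a change of -0.61 ± 0.10 (edgeR adjusted p = 0.00120) without overlap. P4HA1, the more abundant subunit, had 41.7, 51.8 and 44.5 CPM in knockout libraries, against 51.4, 52.2 and 57.0 CPM in WT libraries. Its groups overlapped through knockout replicate 2, and -0.22 ± 0.10 did not pass (edgeR adjusted p = 0.129); without that library it did (-0.31, adjusted p = 0.0192), as with library size in place of TMM (-0.27, adjusted p = 0.0482). P4HA3 (chromosome 11 from 74250146 to 74311640) was scarce, with 0.917, 0.963 and 0.560 CPM in knockout libraries, against 0.0484, 0.102 and 0.153 CPM in WT libraries. From 50 counts over the knockout libraries and 6 over the WT libraries, it rose by 2.94 ± 0.56 (edgeR adjusted p = 0.00282). SERPINH1, the collagen-specific chaperone, had 235, 229.5 and 243 CPM in knockout libraries, against 291, 299 and 328 CPM in WT libraries. Its groups stood apart with a change of -0.37 ± 0.07 (edgeR adjusted p = 0.00164).

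Other genes of the pathway were counted from a separate list, to be read against the 14.5% of all genes tested that were higher and the 11.5% that were lower. Of 13 further genes of modification and folding in the endoplasmic reticulum, all of which were tested, 8 fell and 1 rose, and the median was -0.32; the remaining 4 did not pass. COLGALT1, which adds galactose to hydroxylysine, had 153, 145 and 152 CPM in knockout libraries, against 234, 233 and 231 CPM in WT libraries (-0.63 ± 0.06, edgeR adjusted p = 1.84e-05). P3H4, a partner of the lysyl hydroxylase complex, had 86.5, 76.5 and 82.5 CPM in knockout libraries, against 139, 136 and 137 CPM in WT libraries (-0.75 ± 0.07, edgeR adjusted p = 1.87e-05). P3H2, a prolyl 3-hydroxylase of basement membrane collagen, rose, with 4.18, 3.47 and 3.12 CPM in knockout libraries, against 0.290, 0.508 and 0.562 CPM in WT libraries (2.97 ± 0.34, edgeR adjusted p = 8.66e-05); at under 0.5 CPM on average in WT it was tested through the knockout alone. The groups of these 3 genes did not overlap.

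**Figure D5:**
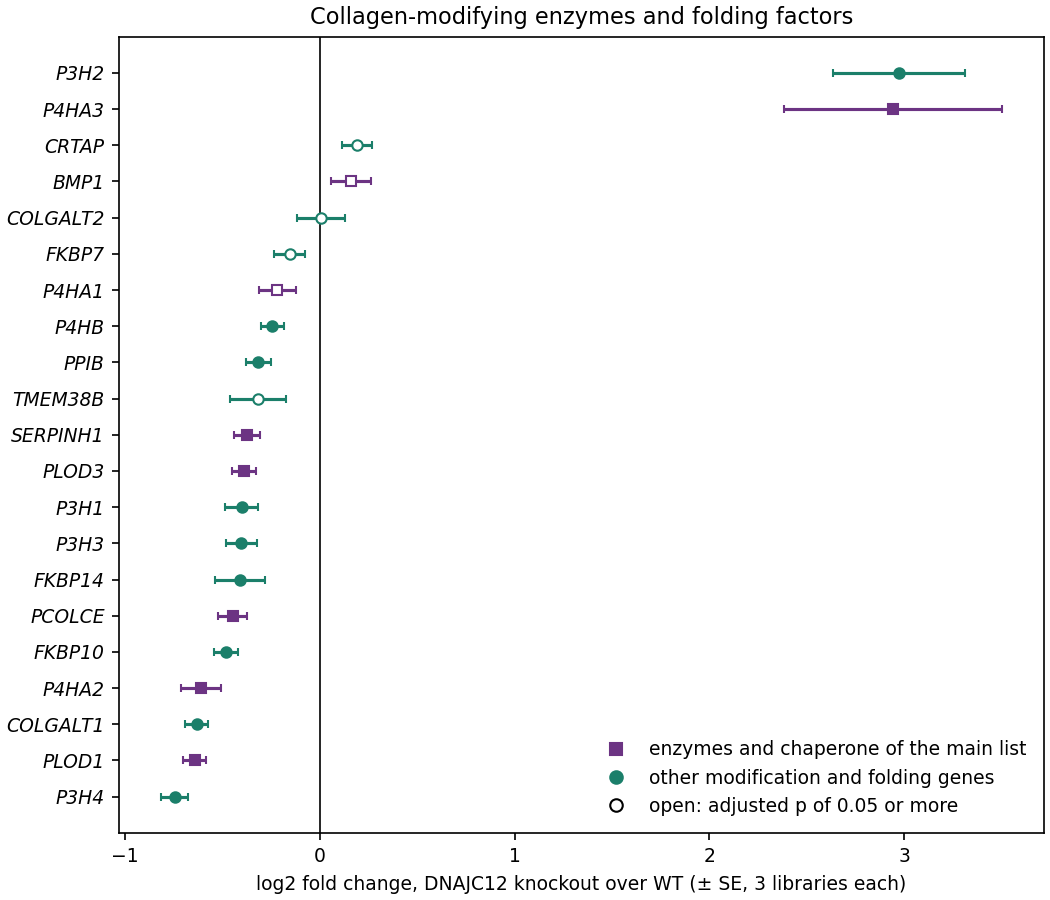
Log2 fold changes (knockout over WT) with SE of the 8 tested genes of enzymes and the chaperone (squares) and of 13 further genes of modification and folding (circles), open where the adjusted p was 0.05 or more. Most lie between 0 and -0.75 (P3H4), while P3H2 (2.97) and P4HA3 (2.94) stand far to the right.

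Of 7 genes that export procollagen, such as MIA3 and SEC24D, 0 passed in edgeR (median -0.03), 0 had an unadjusted p under 0.05, and DESeq2 and limma-voom called 0. Of 11 genes tested for propeptide cleavage and crosslinking, 4 rose and 2 fell, beside 14.5% higher and 11.5% lower over all genes tested. Of the 4 that rose, ADAMTS2, TLL2 and LOXL1 averaged under 0.5 CPM in WT and were tested through the knockout alone, so that count supports nothing about the list. ADAMTS2 and ADAMTS3 both encode amino propeptide proteinases. ADAMTS2 had 5.04, 5.49 and 6.02 CPM in knockout libraries, against 0.0484, 0 and 0 CPM in WT libraries, from 342 counts and 1 count. The gene rose (edgeR adjusted p = 1.38e-06), and the fold rests on that 1 count (ratio 331, 95% exact interval for counting error 59.1 to 13125). ADAMTS3 had 32.7, 44.3 and 39.3 CPM in knockout libraries, against 101, 106 and 89.5 CPM in WT libraries, and fell (-1.35 ± 0.11, edgeR adjusted p = 8.38e-06). Both genes' groups stood apart, in opposite directions. TLL2, a relative of BMP1, had 3.72, 1.20 and 2.10 CPM in knockout libraries, against 0.436, 0.609 and 0.153 CPM in WT libraries, and rose (2.53 ± 0.55, edgeR adjusted p = 0.00624).

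Of 8 collagen receptor genes tested, 2 rose and 2 fell (over all genes tested 14.5% rose and 11.5% fell). MRC2, an endocytic collagen receptor, had 343, 308 and 333 CPM in knockout libraries, against 468, 449.7 and 419.6 CPM in WT libraries (-0.44 ± 0.07, edgeR adjusted p = 0.000609). The integrin subunit gene ITGA1 had 49.5, 68.0 and 55.5 CPM in knockout libraries, against 37.3, 40.0 and 37.1 CPM in WT libraries (0.60 ± 0.11, edgeR adjusted p = 0.00286). DDR2, a receptor kinase for fibrillar collagen, had 189.9, 212 and 194 CPM in knockout libraries, against 162, 159 and 140.2 CPM in WT libraries (0.37 ± 0.08, edgeR adjusted p = 0.00441). In all 3 genes the groups did not overlap. Of 8 collagen genes outside the set of 45, 3 had enough counts to be tested, COL6A6, COL26A1 and COL23A1, and each was higher in the knockout. COL26A1 and COL23A1 averaged under 0.5 CPM in WT and were tested through the knockout alone, so no count over these genes is read as a result. COL6A6, a large chain of type VI, had 6.06, 4.72 and 6.25 CPM in knockout libraries, against 0.533, 1.12 and 0.869 CPM in WT libraries (2.75 ± 0.30, edgeR adjusted p = 5.62e-05). COL26A1 had 99 counts over the knockout libraries and 2 over the WT libraries (ratio 48.0, 95% exact interval 12.9 to 402; edgeR adjusted p = 8.88e-05). COL23A1, a transmembrane collagen, had 42 counts over the knockout libraries and 0 over the WT libraries and was at least 13.6-fold higher (edgeR adjusted p = 0.00165).

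Reads of overlapping genes may enter some of these values, which was not tested. Of the tested genes, 18, among them 12 of those called, have an annotated gene on the opposite strand, such as COL4A2, COL5A1, PCOLCE and P4HA2. That count takes in microRNA genes, such as MIR1245B at COL3A1, and counts COL4A1 and COL4A2 for each other. The libraries were stranded, but how the counting treated strand is not stated in any source used here.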

How the data were processed

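RNA of 3 DNAJC12 knockout and 3 WT libraries was sequenced after ribosomal RNA removal with a stranded kit, per the labels' protocols. Per the submitters' processing notes, the tools were FastQC, cutadapt 3.5, DESeq2 1.42.1 and Salmon 1.10.0, whose roles are not given, on GRCh38.p14 (hg38). The deposited gene table holds estimated counts rounded to whole numbers, and the deposited transcript files hold estimated counts, effective lengths and TPM, per the file headers. Of 21071 rows, 403 repeats with identical counts were removed. Positions, symbols and promoter sequences are RefSeq's for GRCh38.p14. TPM was summed over GENCODE 29 transcripts, for genes with at least 90% of their reads in them.

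Genes kept by filterByExpr were scaled by TMM and tested with edgeR 4.0.16 (R 4.3.3), by its two-sided quasi-likelihood F-test with genotype as the only term, with Benjamini-Hochberg adjustment over all 16403 genes; the SE is the size of the log2 fold change divided by the root of F. Sums, shares and chain ratios were tested with exact permutation tests. Intervals of count ratios are exact 95% binomial intervals over a group's summed counts and, like the floor of 3 counts over a group, cover counting error only, because without molecular identifiers reads need not be independent molecules. Replicates differed by more than counting noise (chi-square per gene 4.27 to 22.7). The code was tested on simulated data. The 45 genes, the pathway and marker lists and the tests were chosen with earlier results of these data known. All genes that passed or averaged at least 2 CPM in 1 genotype are named with their values, as are the 3 genes with the smallest adjusted p among those that passed in each pathway class. Alternatives were DESeq2 1.42.0, limma-voom (limma 3.58.1), DESeq2 size factors, library size alone, no filter or a filter of 1 CPM in 3 libraries, a replicate block, each library left out, counts from the transcript files (summed or length-corrected), an adjusted p of 0.01 and a fold minimum of 1.5. Salmon divides reads among similar sequences, so genes with near-identical copies are uncertain.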

Additional observations from a re-analysis of the deposited data

How the results depend on the processing

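Of the 22 genes called, 18 passed in every one of 15 settings at the same threshold that tested them, 4 did not in at least 1 (COL6A1, COL11A2, COL14A1 and COL16A1), and 0 changed direction; of the 9 not called, 5 passed in at least 1 setting (COL7A1, COL18A1, COL27A1, P4HA1 and BMP1) and 4 took the opposite sign in at least 1, without passing there: COL7A1 on transcript-file counts (0.68 summed, 1.54 corrected for length), COL18A1 on those corrected for length (-0.42), COL9A1 without WT replicate 2 (0.20) and COL19A1 without knockout replicate 2 (-0.26). The transcript-file values of COL7A1 and COL18A1 rest on 42.5% and 6.48% of their reads, for COL7A1 with all reads kept in knockout replicate 3 alone. The median over the genes tested was -0.44 with library size alone, which moved the median of all genes by -0.06, and -0.33 with no filter on low counts, when 36 genes were tested. A fold minimum of 1.5 left 1388 genes called and 6 of the set called lower, and an adjusted p of 0.01 left 2663 genes called, since both ask for more. With 1 library left out, 2966 to 4772 genes were called, 6 to 9 of the set higher and 14 to 17 lower, with a median of -0.40 to -0.35 (log2). Same-numbered libraries did not deviate together (correlations 0.0591, -0.0297 and -0.0652), so the numbers were not taken as pairs; with a replicate block 4565 genes were called, 6 of the set higher and 16 lower, and the median was -0.39. The difference of the COL1A1 to COL1A2 log2 ratio was -0.13, but 0.34 on CPM, 0.25 without WT replicate 1 and 0.13 without WT replicate 2; that of COL6A1 to COL6A2 was 0.04, but -0.0385 on CPM. The cause of these reversals was not tested. With 1 library left out the differences ran from -0.77 to 0.25 (COL1A1 to COL1A2), -0.15 to -0.09 (COL4A1 to COL4A2), -1.54 to -0.70 (COL5A1 to COL5A2), -1.36 to -0.67 (COL5A1 to COL11A1), 0.01 to 0.09 (COL6A1 to COL6A2), 0.64 to 1.33 (COL6A3 to COL6A1) and 0.47 to 1.19 (COL9A2 to COL9A3). At 1 count per 0.0466 to 0.0511 CPM, genes of a few counts per genotype cannot be compared at this depth.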
